A study of Mus musculus with 8 samples.

Results

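The enzymes of serine, one-carbon, asparagine and proline synthesis were examined in N2a cells with knockdown of Grp94. The set held 9 named genes, Phgdh, Psat1, Psph, Shmt2, Mthfd2, Asns, Aldh18a1, Pycr1 and Gpt2, of which Gpt2 makes alanine, a product that the name of the set does not mention. A row of the deposited table was taken where any of its symbols was 1 of these genes, which gave 9 transcript clusters of 2395. The 9 rows covered 8 of the 9 genes, with 2 rows for Phgdh, and Mthfd2 was not listed. A transcript cluster is the group of transcripts for which the array reports 1 value. The genes had been selected on the difference between both group means, so this difference is given as a description without a test.

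The series compared 4 arrays of N2a cells that received a control vector (Vector) with 4 arrays of N2a cells that received vectors for RNA interference against Grp94 (Grp94 knockdown), 8 arrays in all, on Affymetrix Mouse Gene 1.0 ST arrays. N2a (neuro2a) is an established mouse neuroblastoma line, both groups were transfected, and no time after transfection was given in the labels. The paper's methods do state an incubation time after transfection. The titles spell the knockdown group Gep94_KD, while its treatment label reads Grp94 knockdown. The series' design names an empty vector as the control, while the methods name it beside a non-targeting vector and give several constructs against Grp94, and which of them was on which array is not in the labels. The table gives the authors' mean of each group, as log2 values centred on about 0 for every transcript cluster, and it lists only clusters whose adjusted p in the authors' comparison was at most 0.01. Values of single arrays, their spread and the level of a gene were therefore not analysed here, levels could not be compared between genes, and a gene that is not listed has no value here. In RNA from whole cultures, fewer cells of a kind and less RNA per cell cannot be told apart.

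The target was low in the knockdown group. Hsp90b1, which encodes Grp94, a chaperone of the endoplasmic reticulum, had the authors' mean of 0.74 in Vector and −0.78 in Grp94 knockdown. The difference of −1.52 on the log2 scale, or 2.87-fold lower, ranked 3 from the lowest of 2395. Of 10 markers of neuroblastoma and sympathetic cells, 4 were listed, with differences of 0.49 for Dbh, 0.26 for Hand2, 0.24 for Isl1 and −0.12 for Th. Centred means carry no level, so these markers could not be used to check the identity of the cells.

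Serine is made from a glycolytic intermediate by the enzymes of Phgdh, Psat1 and Psph in turn, and serine hydroxymethyltransferase (Shmt2 in mitochondria) converts it to glycine while passing a carbon unit to folate. Mthfd2 oxidizes that folate-bound unit in mitochondria, Asns makes asparagine from aspartate, and Aldh18a1 and Pycr1 catalyse the opening and the last step of proline synthesis from glutamate. In many cell types ATF4, a transcription factor of the amino acid and stress responses, activates genes of this set through elements to which it binds with C/EBP proteins, and NF-Y binds the CCAAT box.

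The promoters of 6 of the genes are shown because they hold the matches to which the rest of the text refers. Asns and Pycr1 hold a C/EBP-ATF match, Phgdh, Psph, Psat1, Mthfd2 and Pycr1 hold CCAAT boxes, and Mthfd2 is the gene without a row. Each line is a RefSeq promoter window of 300 bases in GRCm38.p6, from 250 bases before to 50 bases after the start site, written 5′ to 3′ on the strand of the gene, which was the minus strand for all 6. Capitals mark matches of TGATGNAA, CCAAT or CACGTG on either strand, so a CCAAT box on the opposite strand reads as its reverse complement. The windows lie at chr3:98339920-98340219 (Phgdh), chr5:129787204-129787503 (Psph), chr19:15925010-15925309 (Psat1), chr6:83317555-83317854 (Mthfd2), chr6:7693160-7693459 (Asns) and chr11:120643699-120643998 (Pycr1).
Phgdh: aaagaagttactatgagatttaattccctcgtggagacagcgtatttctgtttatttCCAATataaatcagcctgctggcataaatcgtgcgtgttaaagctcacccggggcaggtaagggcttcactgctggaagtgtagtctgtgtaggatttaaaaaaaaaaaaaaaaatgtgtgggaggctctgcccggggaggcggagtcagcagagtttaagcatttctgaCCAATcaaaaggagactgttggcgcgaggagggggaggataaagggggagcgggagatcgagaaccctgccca
Psph: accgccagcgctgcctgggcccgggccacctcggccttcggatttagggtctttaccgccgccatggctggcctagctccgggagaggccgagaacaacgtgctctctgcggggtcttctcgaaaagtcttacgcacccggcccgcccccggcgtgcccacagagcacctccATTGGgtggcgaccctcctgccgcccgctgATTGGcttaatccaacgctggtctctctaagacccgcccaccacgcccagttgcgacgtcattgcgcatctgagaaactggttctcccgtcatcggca
Psat1: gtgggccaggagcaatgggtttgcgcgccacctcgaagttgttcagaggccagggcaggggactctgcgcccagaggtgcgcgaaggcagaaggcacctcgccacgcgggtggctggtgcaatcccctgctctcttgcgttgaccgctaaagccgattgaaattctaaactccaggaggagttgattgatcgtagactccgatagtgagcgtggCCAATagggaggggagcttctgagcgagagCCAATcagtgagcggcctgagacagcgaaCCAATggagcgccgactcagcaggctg
Mthfd2: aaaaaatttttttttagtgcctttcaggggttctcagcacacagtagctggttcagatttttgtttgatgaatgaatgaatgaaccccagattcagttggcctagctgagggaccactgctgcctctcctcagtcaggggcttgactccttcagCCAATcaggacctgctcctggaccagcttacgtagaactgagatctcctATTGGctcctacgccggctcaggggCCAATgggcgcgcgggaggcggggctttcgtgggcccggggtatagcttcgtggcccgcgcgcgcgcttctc
Asns: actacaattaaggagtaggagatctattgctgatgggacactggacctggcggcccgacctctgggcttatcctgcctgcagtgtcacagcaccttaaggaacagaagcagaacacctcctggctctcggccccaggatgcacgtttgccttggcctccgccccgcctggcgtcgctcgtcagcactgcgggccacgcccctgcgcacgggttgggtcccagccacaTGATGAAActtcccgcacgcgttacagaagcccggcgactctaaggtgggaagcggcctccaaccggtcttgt
Pycr1: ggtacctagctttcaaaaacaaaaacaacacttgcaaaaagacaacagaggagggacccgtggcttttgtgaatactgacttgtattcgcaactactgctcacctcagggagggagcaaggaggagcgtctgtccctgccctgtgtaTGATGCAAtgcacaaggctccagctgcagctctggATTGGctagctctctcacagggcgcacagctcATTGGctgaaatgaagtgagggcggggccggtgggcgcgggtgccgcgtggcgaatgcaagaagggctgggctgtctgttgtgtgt

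TGATGNAA is the core of the C/EBP-ATF element, CCAAT is the NF-Y box, and CACGTG is an E-box, which reads the same on both strands and was counted once. No match overlapped another. All 9 genes had a window in the RefSeq table, and Psat1 had 2 (chr19:15925010-15925309 and chr19:15924573-15924872), of which the first held all its matches. Positions are counted from the start site, negative before it and with no position 0. A TGATGNAA match was found in 2 of the 9 genes, or 2 of their 10 windows. It spanned −23 to −16 in Asns and −103 to −96 in Pycr1. The share with a match was 3.97% of all 32851 promoter windows of 27025 genes, 3.39% of the 1298 windows of 970 genes listed as lower in Grp94 knockdown and 1.52% of the 790 windows of 609 genes listed as higher. A CCAAT box was found in 5 of the 9 genes, or 5 of their 10 windows. The share was 37.4% of all windows, 39.8% of those of lower genes and 35.3% of those of higher genes. The CCAAT boxes began at −193 and −23 in Phgdh, at −78 and −48 in Psph, at −96, −47 and −22 in Mthfd2, at −68 and −36 in Pycr1, and at −36, −6 and 24 in Psat1. Aldh18a1 (chr19:40588414-40588713, minus strand) held the only E-box of the set, from −59 to −54. This was 1 of the 10 windows of the set, against 7.15% of all windows, 7.86% of lower and 12.5% of higher ones. None of the 3 motifs matched in the windows of Gpt2 (chr8:85492326-85492625, plus strand) and Shmt2 (chr10:127522395-127522694, minus strand). A match is a run of letters in a window, and binding of a factor was not measured here.

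**Figure D1:**
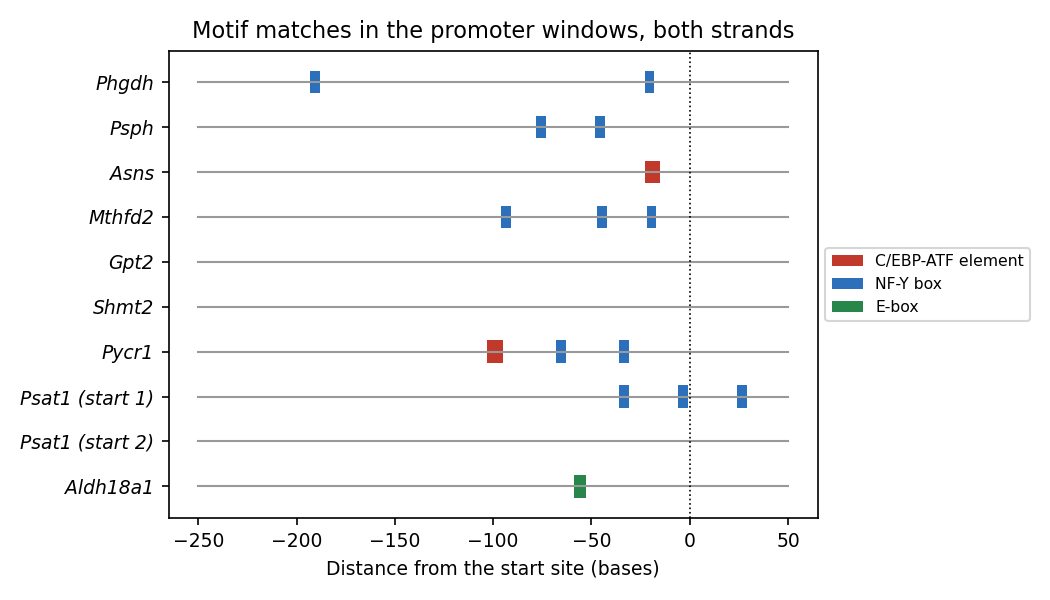
Matches of the 3 motifs in the promoter windows of the 9 genes, with Psat1 at both of its start sites. The x axis gives the distance from the start site in bases, grey lines are the windows, and coloured bars are matches of the C/EBP-ATF element (red), the NF-Y box (blue) and the E-box (green). Pycr1 is the gene of the set with matches of 2 motifs, and Gpt2 and Shmt2 have none.

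All 9 rows of the set had a lower mean in Grp94 knockdown than in Vector, where 59.9% of all listed clusters were lower (1434 lower, 961 higher). Past a 1.3-fold difference, 4 of the 8 listed genes were lower (Pycr1, Gpt2, Psph and Shmt2) and 4 were not past it, where 16.1% of all clusters, or 385, were lower past that fold. At other thresholds, 6 of the 8 were lower past 1.2-fold (31.8% of all clusters), 2 past 1.5-fold (5.34%) and 0 past 2-fold (0.835%). Since the genes were chosen on this difference, nothing is read from these counts. The median difference of the 9 rows was −0.31 on the log2 scale, against −0.16 over all 2395 clusters. All 9 rows lay under the median of the table. Just inside the 1.3-fold threshold was Shmt2 at 1.33-fold. Just outside it was Phgdh, counted by the mean of both its rows (−0.30), which were 1.24-fold and 1.23-fold lower.

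**Figure D2:**
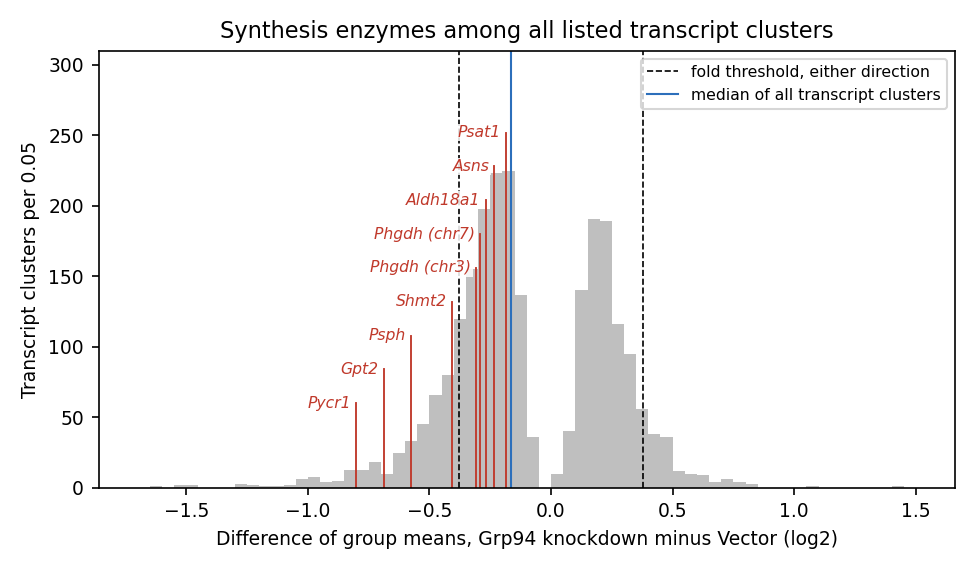
Histogram of the difference of group means (Grp94 knockdown minus Vector, log2, x axis) over the 2395 listed transcript clusters, as clusters per bin of 0.05 (y axis). Red lines are the 9 rows of the synthesis enzymes, whose heights only separate the names, dashed lines are the 1.3-fold threshold, and the blue line is the median of −0.16. The red lines run from −0.80 (Pycr1) to −0.19 (Psat1), all to the left of the blue line.

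In the serine branch, differences were unequal among enzymes of consecutive steps. Phgdh, phosphoglycerate dehydrogenase, opens the branch. Its row on chromosome 3 (98117093 to 98143892, minus strand, 8 probes) had the authors' mean of 0.15 in Vector and −0.15 in Grp94 knockdown, a difference of −0.31 or 1.24-fold lower. The second row with its symbol lies on chromosome 7 (144002592 to 144003583, plus strand, 27 probes), with means of 0.12 and −0.17 and a difference of −0.29 or 1.23-fold lower. This second cluster spans 992 bases, against 26800 bases of the cluster on chromosome 3, and it was the 1 member row of 9 on another chromosome than RefSeq gives for its gene. RefSeq lists a pseudogene of Phgdh on that chromosome, and whether the probes read it, the gene or both was not tested. Both rows gave nearly the same difference, with a mean of −0.30.

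Psat1, phosphoserine aminotransferase (chromosome 19, 15979616 to 15999549, minus strand, 35 probes), followed with means of 0.09 in Vector and −0.10 in Grp94 knockdown. Its difference of −0.19, or 1.14-fold lower, was the smallest of the set and ranked 1100 of 2395. Psph, phosphoserine phosphatase, catalyses the last step (chromosome 5, 130271440 to 130293080, minus strand, 25 probes). Its means were 0.26 and −0.32, and its difference of −0.58, or 1.49-fold lower, ranked 135. The promoter windows of all 3 enzymes shown above hold at least 2 CCAAT boxes, a count chosen after the matches were seen. The share was 11.7% of all windows and 15.6% of those of lower genes. The other window of Psat1 holds no CCAAT box. Shmt2 (chromosome 10, 126954195 to 126959491, minus strand, 29 probes), the mitochondrial enzyme that splits serine into glycine and a folate-bound carbon unit, had means of 0.20 and −0.21. Its difference was −0.41, or 1.33-fold lower, at rank 331. Its cytosolic counterpart Shmt1 was not listed.

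Mthfd2, the mitochondrial folate dehydrogenase and cyclohydrolase, was not listed, nor was its close relative Mthfd2l. No value of Mthfd2 is known here. Its promoter holds 3 CCAAT boxes, as many as that of Psat1.

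Asns, asparagine synthetase (chromosome 6, 7625169 to 7643199, minus strand, 35 probes), had means of 0.11 in Vector and −0.12 in Grp94 knockdown. Its difference of −0.23, or 1.18-fold lower, ranked 899. Of the listed genes of the set, only Psat1 had a smaller difference. Asns is 1 of the 2 genes of the set with a C/EBP-ATF match.

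The proline branch held the row with the largest difference of the set. Aldh18a1, which encodes the synthase of pyrroline-5-carboxylate from glutamate (chromosome 19, 40624747 to 40662859, minus strand, 36 probes), had means of 0.12 in Vector and −0.15 in Grp94 knockdown. Its difference was −0.27, or 1.21-fold lower, at rank 746. Pycr1, the mitochondrial pyrroline-5-carboxylate reductase that completes proline (chromosome 11, 120497026 to 120505016, minus strand, 30 probes), had means of 0.38 and −0.43. Its difference of −0.80, or 1.74-fold lower, ranked 50. Pycr1 is also the only gene of the set with both a C/EBP-ATF match and CCAAT boxes.

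Gpt2, the mitochondrial alanine aminotransferase, which makes alanine from pyruvate and glutamate (chromosome 8, 88016484 to 88051459, plus strand, 30 probes), had means of 0.35 in Vector and −0.34 in Grp94 knockdown. Its difference of −0.69, or 1.61-fold lower, ranked 84, and its cytosolic relative Gpt was not listed. Pycr1 and Gpt2 had the largest differences of the set. Whether the motif matches had any part in the differences of the set was not tested. The chromosome positions of the rows are those of the deposited table, whose genome build is not given in the sources used here, and they are not the coordinates of GRCm38.

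**Figure D3:**
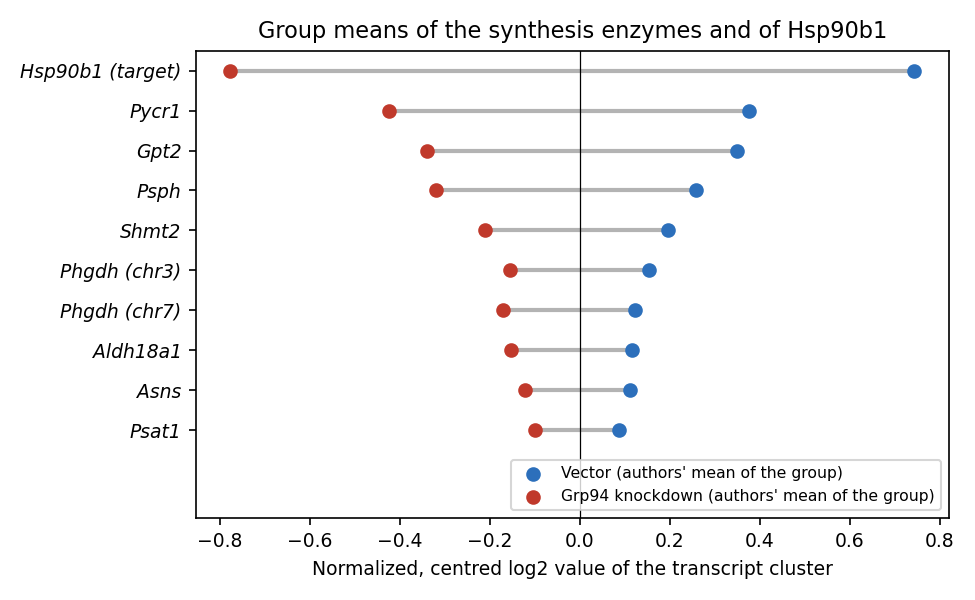
The authors' mean of each group for the target Hsp90b1 and the 9 rows of the synthesis enzymes. The x axis is the normalized log2 value, centred for each transcript cluster, blue points are Vector, red points are Grp94 knockdown, and grey lines join both means of a row. No spread is drawn because the table holds none. Red lies to the left of blue in every row, and the lines shorten from Pycr1 (0.38 and −0.43) to Psat1 (0.09 and −0.10).

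Other genes of the same pathways lay in both directions. In 6 pathway lists, 67 genes were not in the set. Of these, 15 were listed and 52 were not, with 9 lower and 6 higher in Grp94 knockdown. This split is near that of the whole table, where 59.9% of clusters were lower. Of the 15, 1 was lower past 1.3-fold, against 16.1% of all clusters. The median difference of the 15 was −0.14, against −0.16 over all clusters.

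Among 19 genes of serine and glycine synthesis and breakdown, 5 were listed and all were lower, 2 of them past 1.3-fold, with a median of −0.30. Over all clusters, 59.9% were lower and 16.1% were lower past 1.3-fold. Of the 5 genes, 4 belong to the set and were chosen on this difference, so nothing is read from this count or median. The other gene was Sdsl, a serine dehydratase-like gene, with a difference of −0.30. Among 19 folate one-carbon genes, 5 were listed, 3 lower and 2 higher, with a median of −0.13. Aldh1l2, the mitochondrial dehydrogenase that releases the carbon unit of formyl-folate as carbon dioxide, had means of 0.51 in Vector and −0.51 in Grp94 knockdown. Its difference of −1.02, or 2.03-fold lower, ranked 19 and was larger than that of every listed gene of the set. The mitochondrial formyl-folate synthetase Mthfd1l differed by −0.33 and the mitochondrial serine carrier Sfxn1 by −0.13. The cytosolic Mthfd1 was higher by 0.15 and the folate carrier Slc19a1 by 0.26.

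Among 10 genes of asparagine, aspartate and glutamine, 4 were listed, 3 lower and 1 higher, none lower past 1.3-fold, with a median of −0.27. Over all clusters, 59.9% were lower and 16.1% were lower past 1.3-fold. Asns belongs to the set chosen on this difference, so nothing is read from these counts or this median. The other listed genes were the glutaminase Gls2 (−0.33), the cytosolic aspartate aminotransferase Got1 (−0.31) and the glutamate dehydrogenase Glud1 (0.12). Of 7 genes of proline and ornithine, Aldh18a1 and Pycr1 were the 2 listed, with a median of −0.53. Both belong to the set chosen on this difference, so nothing is read from this median. Of 8 aminotransferase genes of alanine and branched-chain amino acids, 3 were listed and all were lower, with a median of −0.35. In the whole table, 59.9% of clusters were lower, with a median of −0.16. Gpt2 belongs to the set chosen on this difference, so nothing is read from this count or median of the list. The mitochondrial Bcat2 (−0.35) and the cytosolic Bcat1 (−0.14) joined Gpt2 in this list. On the scale re-centred on the median of all clusters, Sfxn1, Bcat1 and the marker Th turned to the higher side, and with Sfxn1 the median of the folate list.

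Purine synthesis, which uses glycine and folate-bound carbon units, was the list with more higher than lower genes on the scale as deposited. Of its 13 genes 4 were listed, with a median of 0.15, against −0.16 over all clusters. Of the 4, 3 were higher, where 961 of all 2395 clusters were higher. Paics (0.15) and Gart (0.16), which act in the assembly of the purine ring, and Prps2 (0.23), which supplies its ribose phosphate, were higher in Grp94 knockdown. Impdh1, the enzyme that leads to guanine nucleotides, was lower by a difference of −0.27. None of the 4 was past 1.3-fold in either direction, where 385 of all 2395 clusters were lower and 150 were higher past that fold.

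Of 12 factors of the ATF4 axis, 6 were listed, and all 6 were lower, 4 of them past 1.3-fold, with a median of −0.52. In the whole table, 59.9% of clusters were lower and 16.1% were lower past 1.3-fold. The list was chosen with earlier results of these data known, so nothing is read from these counts or this median. Atf4 itself differed by −0.26, from a mean of 0.12 in Vector to −0.15 in Grp94 knockdown, a difference close to those of Asns and Aldh18a1. The pseudokinase Trib3 differed by −0.94, the stress protein Nupr1 by −0.78 and the transcription factor Atf3 by −0.57. The rows of Atf5 (−0.46) and Ddit3 (−0.34) also carry the symbols of Nup62-il4i1 and Mars, so their signal cannot be assigned to 1 gene. Whether these factors had any part in the differences of the enzymes was not tested.

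**Figure D4:**
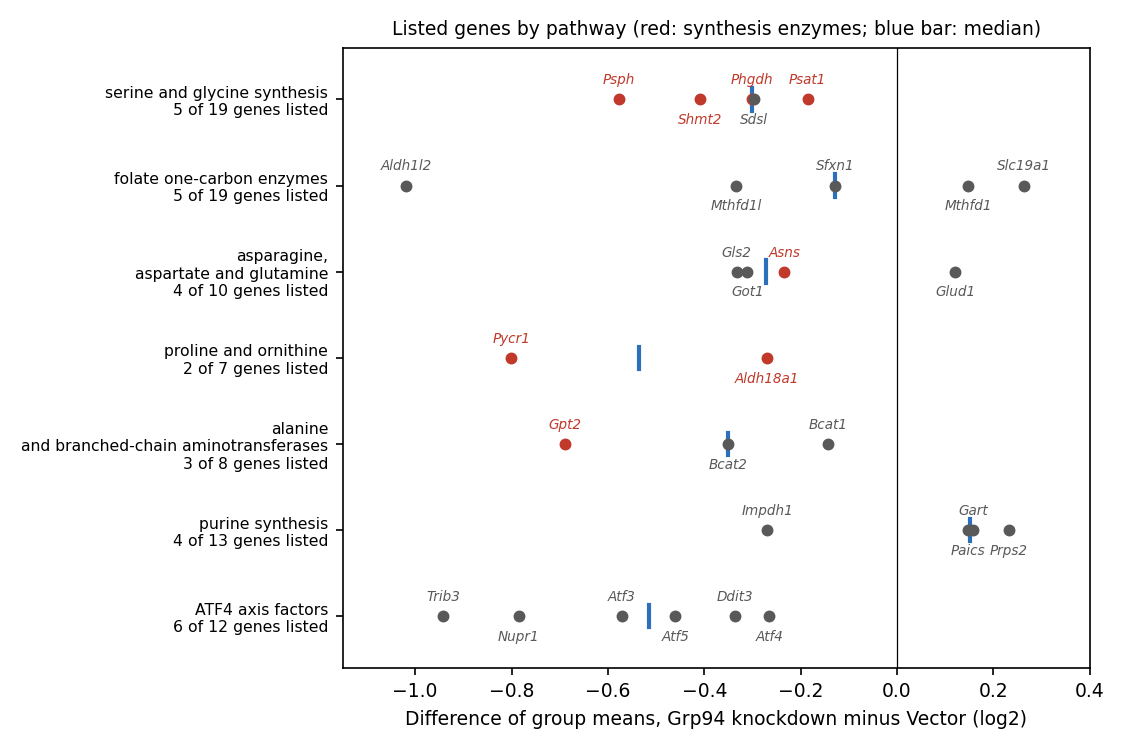
Difference of group means (Grp94 knockdown minus Vector, log2, x axis) for each listed gene of the 7 lists, 1 list per line, with Phgdh as the mean of its rows. Red points are the synthesis enzymes of the set, which were chosen on this difference, and grey points are other genes of the list. Blue bars are the medians, from −0.53 (proline and ornithine, red points only) to 0.15 (purine synthesis, grey points only). Aldh1l2 lies farthest to the left, at −1.02. On the higher side lie 3 of the 4 purine genes, where 961 of all 2395 clusters were higher.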

How the data were processed

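The authors hybridised total RNA of transfected N2a cells to 8 Affymetrix Mouse Gene 1.0 ST arrays, analysed the arrays in Agilent GeneSpring GX and left out genes of low expression. Probe summarization, normalization and the genome build are not given in the sources used here. The deposited table holds, for 2395 transcript clusters, the authors' log2 mean of each group, centred for each cluster. It also holds columns of the authors' own comparison (p-value, adjusted p, direction and fold change), of which none was used here beyond checking that no adjusted p exceeded 0.01.

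Groups were taken from the labels (4 Vector and 4 Grp94 knockdown arrays). The difference was the mean of Grp94 knockdown minus that of Vector, and the fold is 2 raised to its size. Clusters past 1.3-fold and medians were counted for the set, for 7 gene lists and for the whole table. Of the rows, 258 carry several symbols. For the set and the lists a row was matched by any of its symbols, and in the whole table each row was counted once. The promoter groups of lower and higher genes used only rows of 1 symbol and left out genes with rows in both directions. Without array values no test, error, block or removal of an array was run. Genes named are those of the set, the listed genes of the lists, relatives of the enzymes, markers and Hsp90b1. A few genes of the lists are not reported here and were left out of the list counts. The genes and lists were chosen with earlier results of these data known. Promoter windows came from the RefSeq table of GRCm38.p6, and motifs were searched by exact letters on both strands. A comparison of protein sequences between relatives was planned and was not run. Alternatives changed the fold threshold, the centring, rows with several symbols, the motif and the window. Calculations used Python 3.11.15, numpy 2.4.6 and pandas 2.3.3, plots used matplotlib 3.10.9, and the scripts were tested on simulated data.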

Additional observations from a re-analysis of the deposited data

How the results depend on the processing

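The number of the 8 listed genes lower past the threshold was 4 at 1.3-fold (16.1% of all clusters). It was 6 at 1.2-fold (31.8%), 2 at 1.5-fold (5.34%) and 0 at 2-fold (0.835%), and 8 with no threshold (59.9%). Re-centring on the median of all clusters (−0.16) gave 3 genes and moved the median of the set from −0.31 to −0.14. Without the Phgdh row on chromosome 7, a choice made after seeing the data, the median was −0.36. The re-centred medians of the lists were −0.14 for serine and glycine, 0.036 for folate (reversed from −0.13), −0.11 for asparagine, aspartate and glutamine, −0.37 for proline, −0.19 for aminotransferases, 0.32 for purines and −0.35 for the ATF4 axis. With rows of 1 symbol only, the ATF4 axis gave −0.68, since Atf5 and Ddit3 dropped out, and the set and the other 6 lists kept their medians. The stricter TGATGCAA left 1 gene (Pycr1) in place of 2, and the 250 bases before the start site alone gave the same gene counts for all 3 motifs. No paired analysis was possible because only group means were used, and for the same reason no array could be left out. The number of arrays, 4 per group, limits the precision, which is unknown here, and genes outside the table cannot be counted as unchanged.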

Other observations

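At least 2 CCAAT boxes in the 300-base window were found in 5 of the 9 genes of the set, or 5 of their 10 windows. The share was 11.7% of all windows, 15.6% of those of lower genes and 12.8% of those of higher genes. Of windows with any CCAAT box, at least 2 were found in all 5 of the set, against 31.3% over the whole table, 39.3% for lower genes and 36.2% for higher genes. This count was chosen after the matches were seen. The distance between the starts of neighbouring boxes was 30 bases in Psph, 32 in Pycr1, 30 and 29 in Psat1, 49 and 25 in Mthfd2, and 170 in Phgdh. The stricter TGATGCAA matched 0.895% of all windows (294 of 32851). It matched 1.69% of the windows of lower genes (22 of 1298, with that of Pycr1 among them). Of the windows of higher genes it matched 0.127%, or 1 of 790. These shares are a description with no test.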
